A study of Mus musculus with 4 samples.

Results

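Peaks of N6-methyladenosine (m6A) on mouse genes that carry only a catalogue name were examined in liver RNA. The members were all rows of both deposited peak lists whose gene symbol was Gm followed by a number or ended in Rik. They made up 876 of 14057 peaks in the list of control livers (6.23%, 95% Wilson interval 5.84 to 6.64) and 911 of 14693 peaks in the list of knockout livers (6.2%, 5.82 to 6.6). These peaks lay on 630 of 8376 genes in the control list and on 637 of 8565 genes in the knockout list. The union of both lists held 782 such genes, 471 with Gm symbols and 311 with Rik symbols. The name rule uses no measured value. It also took in Gm2a, which is an established gene with a similar symbol, the activator of GM2 ganglioside breakdown in lysosomes.

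The study mapped how ALKBH5 affects m6A on liver mRNA, by methylated RNA immunoprecipitation sequencing (MeRIP-seq) of 4 libraries. Livers came from Alkbh5flox/flox mice (FF), which carry the floxed gene and served as the control, and from Alkbh5-HKO mice (HKO), taken as the knockout. The labels do not spell out HKO, and the sources used here name no Cre driver. The animals, aged 9 weeks, ate normal chow, and for each genotype the RNA of 3 livers, 300 μg in total, went into 1 pool. RNA in fragments of about 100 nt was incubated with an m6A antibody for 2 h, and both the immunoprecipitated RNA (IP) and its input were sequenced as paired reads of 150 bp. With 1 IP library per genotype there was no replicate, and no test was run.

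m6A is written onto RNA during transcription by the METTL3 and METTL14 complex, mostly within the letters GGAC, and is removed by the demethylases ALKBH5 and FTO. Reader proteins that bind the mark alter splicing, export, translation and decay of the RNA. In messenger RNA it clusters around the stop codon and along long internal exons, and long non-coding RNAs (lncRNAs) carry it too. Gm symbols are given to gene models predicted in mouse, and Rik symbols to cDNA clones of the RIKEN collection, so both classes mix lncRNAs, pseudogenes and coding genes that still lack a name from their function.

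The lists give no read totals, so the depth of the libraries is not known. A gene without a peak can lack m6A or lack reads, and less RNA cannot be told apart from less methylation. Fold enrichment and q are the authors' own values per peak, IP over input within a genotype. The IP of each genotype was a reaction of its own, so folds set side by side for FF and HKO do not give a direction. Alkbh5 itself had 3 FF peaks and 0 HKO peaks. Of 8 hepatocyte markers, 5 were represented among the FF peaks and 6 among the HKO peaks. Of 9 markers of other liver cells, 2 were represented among the FF peaks (Clec4f of Kupffer cells and Pecam1 of endothelium) and 5 among the HKO peaks, where Dcn, Col1a1 and Spp1 were added. Whether the makeup of the cells bears on the values below was not tested.

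Sequence was available for the 250 bases before and 50 bases after annotated gene starts (RefSeq, GRCm38.p6), and 606 of the 782 genes had such a window. The stretches shown are parts of peaks on lncRNAs that lie inside a window and touch no coding gene on the same strand. They are printed because they let the letters of these little-known RNAs be read beside their enrichment. Each line runs 5′ to 3′ on the strand of the lncRNA, and capitals mark GGACT and its forms that end in A or C, 3 versions of the m6A motif.
A930004D18Rik: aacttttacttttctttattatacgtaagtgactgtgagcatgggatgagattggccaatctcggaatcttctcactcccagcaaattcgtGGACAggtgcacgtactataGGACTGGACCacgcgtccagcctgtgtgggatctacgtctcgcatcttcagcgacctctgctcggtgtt
D930048N14Rik: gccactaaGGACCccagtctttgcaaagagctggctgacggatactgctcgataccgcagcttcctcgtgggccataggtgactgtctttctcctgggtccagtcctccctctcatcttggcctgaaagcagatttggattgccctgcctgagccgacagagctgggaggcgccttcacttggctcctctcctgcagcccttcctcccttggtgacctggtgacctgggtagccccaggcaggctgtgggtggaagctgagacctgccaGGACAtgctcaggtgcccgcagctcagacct
2310034O05Rik: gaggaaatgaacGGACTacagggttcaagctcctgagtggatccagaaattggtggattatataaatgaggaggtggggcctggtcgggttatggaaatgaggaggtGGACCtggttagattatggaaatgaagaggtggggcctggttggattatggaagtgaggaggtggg
Gm15441: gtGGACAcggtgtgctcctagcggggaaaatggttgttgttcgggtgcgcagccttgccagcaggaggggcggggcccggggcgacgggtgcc
0610005C13Rik: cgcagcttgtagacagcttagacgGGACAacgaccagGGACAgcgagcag
Gm38456: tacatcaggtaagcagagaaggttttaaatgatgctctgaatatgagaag
Gm40055: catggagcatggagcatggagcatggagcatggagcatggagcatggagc

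The A930004D18Rik stretch is a whole peak, 180 bases on the minus strand at chr2:18027039-18027218, within the window of Gm17762 on the opposite strand. It held 3 motif matches, 2 of them adjoining. The peak had a fold of 15.7 (FF, log10 q -3.17) and 13.6 (HKO, log10 q -2.59), and 160 HKO peaks held the latter pair of values. D930048N14Rik is shown for 300 bases on the plus strand at chr11:51657041-51657340, with 2 matches on its own strand. Its peak had folds of 19.3 (FF) and 22.9 (HKO). The 173 bases of 2310034O05Rik, plus strand at chr5:100217698-100217870, held 2 matches amid a repeated unit, and the peak had folds of 21.9 (FF) and 12.7 (HKO). Gm15441 is known as a lncRNA antisense to Txnip, the gene of thioredoxin-interacting protein. Its 93 bases, minus strand at chr3:96557707-96557799, lie in the start window of Txnip and held 1 match. The Gm15441 peak had a fold of 11.7 in the FF list at a log10 q of -2.12, a pair of values held by 159 FF peaks. There was no HKO peak.

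The remaining 3 stretches are the first 50 bases of the annotated gene. That of 0610005C13Rik, minus strand at chr7:45575127-45575176, held 2 matches, and its peak had folds of 4.01 (FF) and 6.72 (HKO). Neither Gm38456, minus strand at chr16:24296184-24296233, nor Gm40055, minus strand at chr3:58031664-58031713, held a match in these bases. The Gm40055 stretch is a tandem repeat of catggag. The peaks that begin there extend farther into each gene, and had folds of 10.3 (FF) and 60.2 (HKO) on Gm38456, and of 51.7 (FF) and 13.2 (HKO) on Gm40055.

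Matches of this kind are common. Searched on the gene's strand, in their last 50 bases, 15.4% of 32851 windows held at least 1 of the 3 motifs, in their last 180 bases 42.8%, and in all 300 bases 60.2%. Among Gm and Rik peaks with 100 or more bases inside a window, 26 of 46 from the FF list (56.5%) and 14 of 23 from the HKO list (60.9%) held a match on the transcript's strand. The median stretch was 170 bases (FF) and 168 bases (HKO), lengths at which 41.1% and 40.7% of windows held one. Most of these stretches, 37 (FF) and 20 (HKO), came from the window of a gene on the opposite strand, so the 2 shares do not count like strands. On either strand, 76.1% (FF) and 65.2% (HKO) of the stretches held a match, beside 65.1% and 64.7% of windows. These are counts of letters and do not mark which adenosine was methylated.

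Most of the genes were non-coding. All 782 symbols matched the RefSeq gene table, which gives 550 as lncRNA, 196 as protein coding, 25 as transcribed pseudogenes, 10 as miscellaneous RNA and 1 as guide RNA. They lay on 20 chromosomes and were short, with a median gene span of 8530 bp against 23840 bp for all other genes with a peak. Few of the catalogued names were reached by a peak. Of 24095 reference genes with a Gm or Rik symbol, 782 had a peak (3.25%), beside 8863 of 25902 genes with other symbols (34.2%). Among protein-coding genes the shares were 11.2% of 1750 and 43.4% of 20146. Among lncRNAs they were 4.62% of 11916 and 10.2% of 815. None of 8137 Gm or Rik genes classed as plain pseudogenes had a peak, and none of 1818 with other symbols.

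The deposited lists pair each peak with its best protein match, which gives a hint of what a gene may derive from. No protein was matched to 442 of the 782 genes, 407 of them lncRNAs. An uncharacterised protein, such as the KIAA and open reading frame series, was matched to 93 genes, and 90 of these were protein coding. Zinc finger proteins were matched to 37 genes, retroelement proteins to 20, ribosomal proteins to 10 and interferon-inducible GTPases to 5. The other 175 matched proteins of many kinds. A match to a lncRNA can come from an overlapping or neighbouring gene, as for Gm36629, which is matched to the glycosyltransferase of B3gat3 on the opposite strand.

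Gm and Rik peaks were weaker in q but higher in fold than other peaks of the same list. Their median fold was 11 in the FF list (quartiles 6.01 and 16.4), beside 8.62 for the other 13181 peaks (4.41 and 14.9). In the HKO list it was 13.2 (7.35 and 20.4), beside 10.2 for the other 13782 peaks (4.91 and 17.8). The median log10 q was -4.82 against -8.09 (FF) and -5.64 against -9.02 (HKO), so the typical peak on these genes was the less certain one. They covered fewer bases as well, the median exonic length being 211 against 241 (FF) and 239 against 269 (HKO).

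A number of peaks had exactly the same values. Pairs of fold and q that recurred in 10 or more peaks of a list belonged to 32.5% of FF peaks on Gm and Rik genes and 18.5% of other FF peaks, and to 35.8% and 20.9% of HKO peaks. The shares were high too on lncRNAs with other names, 32.4% (FF) and 29.5% (HKO). On zinc finger genes with Zfp symbols they were 34.8% (FF) and 43.5% (HKO). The commonest pair in the FF list on Gm and Rik genes was a fold of 11 with a log10 q of -1.92. It was held by 22 of their peaks out of 160 peaks in all. Without recurring values, the median folds of Gm and Rik peaks and of all other peaks were 8.22 against 7.05 (FF) and 11 against 8.14 (HKO). Over all their peaks, the Zfp genes had median folds of 11.7 (515 peaks, FF) and 14.4 (584 peaks, HKO), above those of the Gm and Rik genes. The highest folds of all belonged elsewhere, since the top was 117 on Gm and Rik genes and 396 on the others in the FF list, and 214 and 537 in the HKO list.

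**Figure D1:**
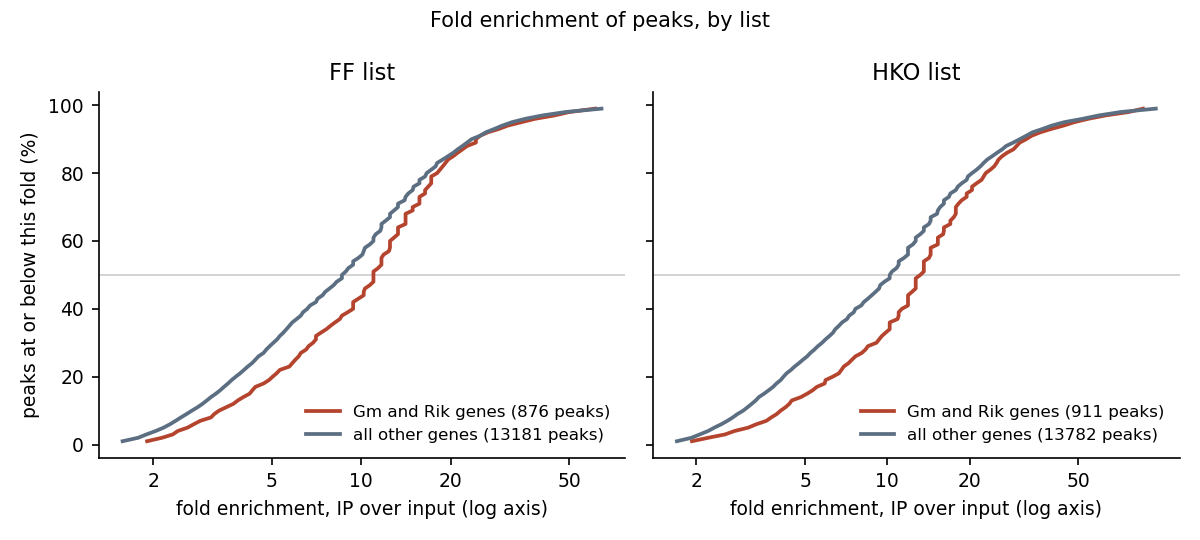
Cumulative share of peaks (vertical axis, percent) at or below a fold enrichment of IP over input (horizontal log axis), for Gm and Rik genes in red and all other genes in grey, by list. The red curve lies to the right through the middle of both panels, with medians of 11 against 8.62 (FF) and 13.2 against 10.2 (HKO), and the curves meet at high folds.

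Peaks on these genes lay near the annotated gene end more often than other peaks. In the FF list, 329 of 876 were centred within 1000 bp of the end (37.6%, 34.4 to 40.8), beside 25.8% of the others. In the HKO list, 369 of 911 were (40.5%, 37.4 to 43.7), beside 30.3%. Peaks on lncRNAs with other names had shares like these, 38.6% (FF, 29.7 to 48.4) and 43.3% (HKO, 34.2 to 52.9). Among genes with a span of 10 kb or more the shares were 28.7% against 22% (FF) and 30% against 26.1% (HKO), and among shorter genes 45.6% against 39% and 51.5% against 47.1%. The part of gene length in the difference was not tested. The end of a lncRNA has no stop codon, so this is a position on the gene and not on a coding frame.

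At the gene start the comparison depended on the genes admitted. Peaks centred within 500 bp of the start made up 16.2% of Gm and Rik peaks and 14.9% of other peaks in the FF list, and 10.1% and 7.21% in the HKO list. Among genes of 10 kb or more the order was turned, at 10.1% against 12.7% (FF) and 5.58% against 5.77% (HKO). Among shorter genes it was turned in the FF list, at 21.7% against 22.8%, and kept in the HKO list, at 14.8% against 12.9%. The FF order was turned also for peaks that overlapped no peak of another gene, at 12.3% against 14.6%. Peaks of the FF list alone lay at the start in 26.6% of cases on Gm and Rik genes and in 35.4% on other genes, while those found in the HKO list alone did so in 6.29% and 4.59%.

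**Figure D2:**
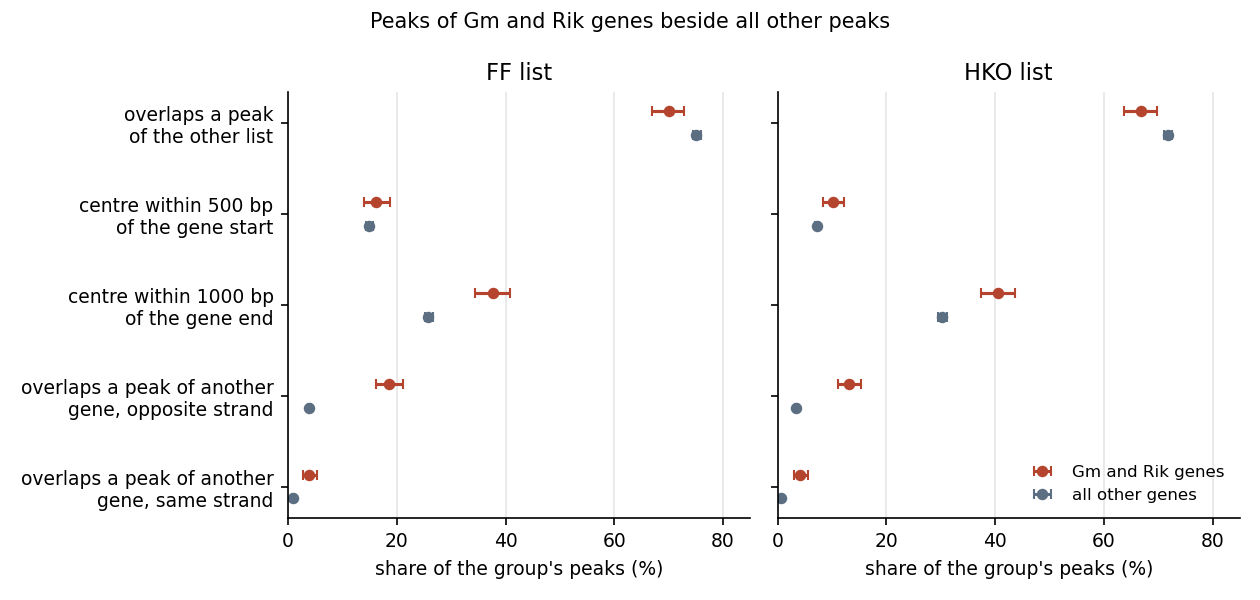
Share of peaks (horizontal axis, percent, with 95% Wilson intervals that cover counting error only) with each of 5 properties, for Gm and Rik genes in red and all other genes in grey, by list. Overlap with a peak of another gene on the opposite strand stood at 18.5% against 3.9% (FF) and 13.1% against 3.45% (HKO), and a centre near the gene end at 37.6% against 25.8% and 40.5% against 30.3%.

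Many of these peaks shared their position with a peak of another gene in the same list. On the opposite strand, 162 of 876 did so in the FF list (18.5%, 16.1 to 21.2) beside 3.9% of other peaks, and 119 of 911 in the HKO list (13.1%, 11 to 15.4) beside 3.45%. For peaks on Gm and Rik lncRNAs the shares were 24.4% (FF, 21.1 to 28.1) and 17.7% (HKO, 14.8 to 21). For peaks on lncRNAs with other names they were 13.7% (8.36 to 21.7) and 9.52% (5.26 to 16.6), above the shares of all other peaks. On the same strand, where gene models overlap or read through, there were 34 peaks (3.88%) beside 0.865% (FF) and 37 (4.06%) beside 0.668% (HKO).

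Within such pairs the folds were often close. Over 158 pairs on opposite strands in the FF list, the larger fold exceeded the smaller by a median factor of 1.14, and 22 pairs had the same fold. In the HKO list the factor was 1.12 over 116 pairs, 16 of them equal. Among pairs that overlapped by 90% or more of the shorter peak it was 1.1 (FF) and 1.06 (HKO). Same-strand pairs had factors of 1.03 over 32 pairs and 1.02 over 35. Whether the kit marked strand is not settled by the labels, so reads of a gene and of its antisense partner may not be separable, and which gene of a pair carried the mark was not tested.

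Single pairs show how far this went. The peak of 1700052K11Rik, a lncRNA at chr11:105179854-105180599, and that of Tlk2, a kinase gene on the other strand, had the same folds, 59.5 (FF) and 45.0 (HKO). 0610009E02Rik lies opposite Notch1, the receptor gene, with folds of 8.22 and 8.3 (FF) and of 23.6 and 23.8 (HKO). 1110051M20Rik and Arfgap2 had 1.34 each (FF) and 5.26 each (HKO). In these 3 pairs both genes had nearly the same fold within each list.

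Other pairs stood farther apart. Gm11747 had folds of 109 (FF) and 77.2 (HKO) at chr11:118448181-118448720, and C1qtnf1, which encodes a secreted protein, had 64.2 and 40.3 at almost the same bases. Over the end of Actb, the gene of beta-actin, Gm38733 had a peak of fold 2.7 in the HKO list beside 4.08 for Actb. On the same strand, Gm20716 shared the peak of Adnp (33.4 and 34.2, FF; 17.9 and 19.7, HKO), Gm38431 that of Fdx2 (22.9 and 23.5, FF; 24.2 and 24.1, HKO) and Gm20604 that of Moap1 (54.8 and 49.3, FF; 60.2 and 58.6, HKO).

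**Figure D3:**
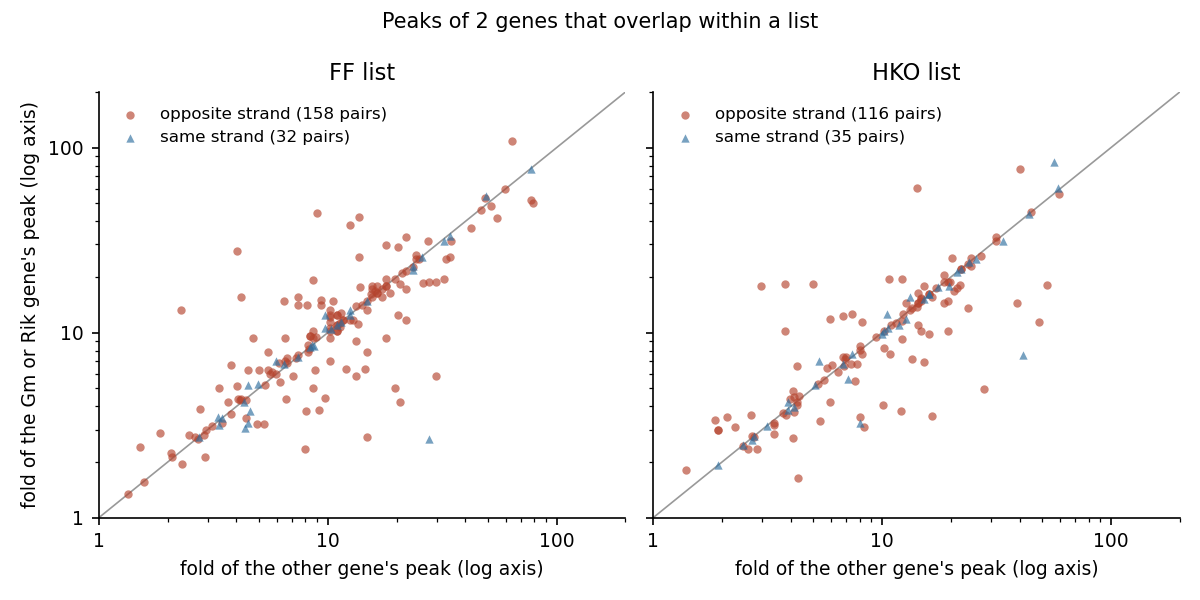
Fold enrichment of a Gm or Rik gene's peak (vertical log axis) against that of the overlapping peak of another gene in the same list (horizontal log axis), 1 point per pair, opposite strand in red and same strand in blue. Points gather on the grey line of equality, with median factors of 1.14 (FF) and 1.12 (HKO) on opposite strands and 1.03 and 1.02 on the same strand.

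A smaller share of these peaks recurred in the other list. Sharing meant an overlap of exon blocks by 1 bp or more, strand included. Of the 876 FF peaks, 613 were shared (70%, 66.9 to 72.9) beside 75.1% of the others, and of the 911 HKO peaks, 609 (66.8%, 63.7 to 69.8) beside 71.8%. The other 263 FF peaks and 302 HKO peaks were specific to their list, where the background over all peaks was 25.2% (FF) and 28.5% (HKO). The gap varied with the strength of the peaks compared. At a q above 1e-05, 51.1% and 51.3% were shared (FF) and 45.7% and 44.7% (HKO). With both lists at a q of 1e-05 or less, the gap remained, at 76.8% against 81.5% (FF) and 68.5% against 74.4% (HKO). At a log10 q of -20 or less, 98.7% and 96.7% were shared (FF) and 94.1% and 94% (HKO). With 1 peak per gene, that of smallest q, the gap was wider, at 73.2% against 82.1% (FF) and 70.6% against 79.5% (HKO). Over the 613 shared pairs, the larger of both folds exceeded the smaller by a median factor of 1.9 (quartiles 1.33 and 3.32), beside 1.82 over 9905 pairs of other genes.

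Counted by gene, 485 of the 782 had peaks in both lists (62%, 58.6 to 65.4), beside 6806 of 8868 others (76.7%). In the FF list alone there were 145 (18.5%, background over all genes with a peak 11.2%), and in the HKO list alone 152 (19.4%, background 13.2%). Coding genes were found in both lists about as often as the others, 154 of 196 (78.6%), and lncRNAs less often, 315 of 550 (57.3%), with 124 in FF alone and 111 in HKO alone. Outside the Gm and Rik genes, well-known lncRNAs were in both lists in 9 of 15 cases (60%, 35.7 to 80.2). Genes with clone symbols, such as AI or BC and digits, were so in 40 of 58 (69%, 56.2 to 79.4). Gm genes stood at 268 of 471 (56.9%) and Rik genes at 217 of 311 (69.8%). Most of the Gm and Rik genes had 1 peak, 453 of 630 from the FF list (71.9%) and 450 of 637 from the HKO list (70.6%), beside 54.6% and 54.7% of other genes. A gene's place in either list thus often hung on a single peak.

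**Figure D4:**
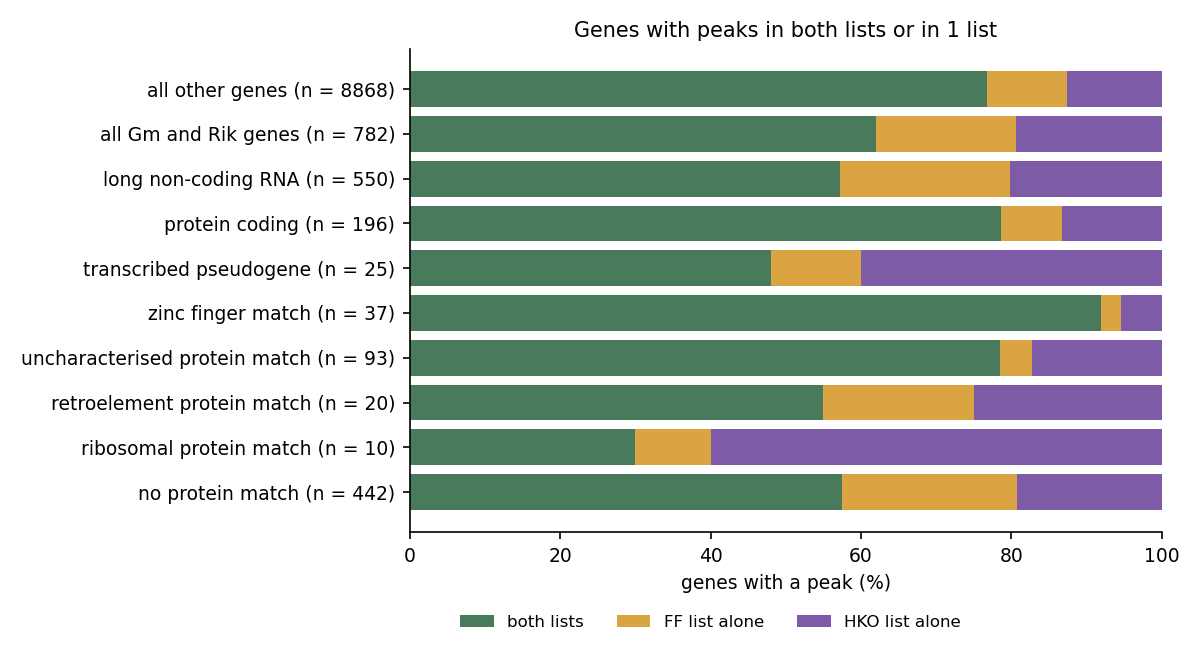
Share of genes (horizontal axis, percent) with peaks in both lists, in the FF list alone or in the HKO list alone, for all other genes, all Gm and Rik genes, and 8 of their RefSeq and protein-match classes, with the number of genes in brackets. Among the bars drawn, that for both lists was longest for zinc finger matches (34 of 37) and shortest for ribosomal protein matches (3 of 10).

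Zinc finger genes, most of which encode DNA-binding repressors in clustered families, were mostly found in both lists. Of 37 genes, 34 had peaks in both lists (91.9%, 78.7 to 97.2), beside 75.6% of all genes with a peak. Gm6287 had peaks in the FF list alone (2.7%, background 11.2%), and 2810039B14Rik and B230307C23Rik in the HKO list alone (5.41%, background 13.2%). The commonest protein match among all Gm and Rik genes was zinc finger protein 431, with 15 genes, and 8 zinc finger genes lay on chromosome 2. On Gm14326 the peak at chr2:177943240-177943599 had a fold of 25.8 (FF), and the HKO peak that overlaps it had 53.5. On Gm38396, chromosome 17, the FF list gave folds of 11.7, 4.9 and 21.5 and the HKO list 45.0 and 73.0. Among these genes 61 FF peaks had a median fold of 11.7 and 67 HKO peaks one of 16.1. Of these, 0 of the FF peaks and 2 of the HKO peaks (2.99%) were strong and specific to their list, as defined below. The background over all peaks was 6.4% (FF) and 8.87% (HKO). For genes with Zfp symbols these shares were low too, at 2.14% (FF) and 2.74% (HKO). Of those genes, 241 of 279 (86.4%) had peaks in both lists. Members of a zinc finger family share sequence, and no source used here says how reads were divided between near-identical copies.

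Retroelement matches stood at 20 genes, with LINE-1 and Gag-Pol proteins the commonest. Peaks in both lists were found on 11 of them (55%, 34.2 to 74.2), beside 75.6% of all genes with a peak. FF peaks alone were found on 4 (20%, 8.07 to 41.6, background 11.2%) and HKO peaks alone on 5 (25%, 11.2 to 46.9, background 13.2%). The median fold on the genes with retroelement matches was 11.2 over 24 FF peaks and 19.5 over 36 HKO peaks, beside 11 (FF) and 13.2 (HKO) over all Gm and Rik peaks. Gm38847, matched to an endogenous retroviral Env protein, had peaks of fold 10.7 and 3.95 (FF) and 187 and 47.5 (HKO) at the same positions on chromosome 6. A730017L22Rik, matched to a LINE-1 protein, had 24.3 (FF) and 134 (HKO). Gm38983, matched to an endogenous retroviral Pol protein, had the higher values in the FF list, 31.3 and 44.6, beside 21.2, 18.7 and 20.4 (HKO). A230045G11Rik, another LINE-1 match, had 28.3 and 38.4 (FF) and 86.1 and 5.33 (HKO), so the order of its 2 peaks differed between the lists. Repeat copies share sequence, and these values are uncertain for that reason.

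Of 10 genes with ribosomal protein matches, 3 had peaks in both lists (30%, 10.8 to 60.3), beside 75.6% of all genes with a peak. FF peaks alone were found on 1 (10%, background 11.2%) and HKO peaks alone on 6 (60%, 31.3 to 83.2, background 13.2%). Most of the 10 are transcribed pseudogenes, 7 in all, and how reads were divided between a pseudogene and its parent gene is not given. Gm9385, matched to L24, had low folds of 1.43 (FF) and 1.5 (HKO), and Gm4786, matched to L7a, had 1.98 and 1.99. By contrast Gm15772, matched to L26, had 8.3 in the HKO list and no peak in the FF list. Rpl26 itself, the coding gene on another chromosome, had folds of 2.32 (FF) and 7.49 (HKO).

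Genes matched to interferon-inducible GTPases, which act in defence of cells against intracellular parasites, had peaks in both lists in 4 of 5 cases. Over all genes with a peak that share was 75.6%. Gm4951 had folds of 17.2 and 39.2 (FF) and of 41.6 and 15.3 (HKO), so the order of its 2 peaks differed between the lists. Gm8995 had 5 FF peaks, of folds 14.1, 34.5, 14.1, 3.92 and 14.9, and 4 HKO peaks, of 15.3, 21.2, 39.9 and 33.1. Gm4070 had 11 (FF) and 20.4 (HKO). Gm4841 was the exception, with 1 HKO peak of fold 14.4 and none in the FF list (1 of 5 genes, 20%, 3.62 to 62.4, background 13.2%).

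Strong list-specific peaks had a q of 1e-05 or less, a fold of 2 or more and no overlap with the other list. There were 40 in the FF list on 38 genes (4.57%, background over all peaks 6.4%) and 72 in the HKO list on 66 genes (7.9%, background 8.87%). The FF share lay below the background, whose value was outside the interval of the share (3.37 to 6.16), and the HKO share was near it (6.32 to 9.84). The order against other peaks depended on the limits. At a q of 1e-03 or less it was turned, at 13.7% of Gm and Rik peaks against 12.7% of others (FF) and 18% against 16.9% (HKO), and at 1e-10 or less it was 0.913% against 2.69% and 3.29% against 4.01%. LncRNAs held 26 of the 40 and 45 of the 72, beside 573 of all 876 FF peaks and 588 of all 911 HKO peaks on these genes. At the gene start lay 17 of the FF peaks and 3 of the HKO peaks, and near the gene end 10 and 38. A peak of another gene on the opposite strand overlapped 14 of the FF peaks and 11 of the HKO peaks. Of all list-specific peaks, the start held 26.6% on these genes and 35.4% on others (FF), and 6.29% and 4.59% (HKO). The end held 32.3% and 15.8% (FF), and 43.4% and 32.8% (HKO). Overlap on the opposite strand stood at 23.2% and 4.85% (FF), and 8.61% and 3.04% (HKO). For strong list-specific peaks of other genes these shares were not counted. Not all were a gene's only sign of m6A, since 18 of the 40 FF peaks and 37 of the 72 HKO peaks lay on genes with a peak in the other list. The remaining 22 (FF) and 35 (HKO) lay on genes without one. For strong list-specific peaks of other genes that part was smaller, 307 of 859 (FF) and 443 of 1232 (HKO).

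In the FF list the strongest by q was on 1300017J02Rik, a coding gene matched to the inhibitor of carbonic anhydrase, a transferrin relative. Its fold was 4.41 at a log10 q of -39.0, centred 103 bp from the gene start. Next came Gm36629 (5.87, log10 q -21.2), over the FF-specific start peak of B3gat3 on the opposite strand, which had a fold of 13.3. 2510039O18Rik, the mouse form of KIAA2013, had 2 such peaks, of 10.9 (log10 q -16.8) and 17.2 (-10.7). Gm31834 (7.05, -16.1) and Gm9917 (6.84, -12.2) each overlapped a peak on the opposite strand. Gm23119, the guide RNA, had a fold of 26.6 (-11.3) over 140 bases, its whole span. Gm6485, a transcribed pseudogene matched to histone H3.3, had 2.43 (-11.0). H3f3b, a gene that encodes that histone, had no peak in either list, and other genes of that histone were not looked up.

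In the HKO list the strongest by q was on Gm15772 (8.3, log10 q -83.1), given above. Gm38733 (2.7, -73.4) overlapped Actb. C730036E19Rik, a lncRNA on chromosome 1, had 8.03 (-66.4). Gm5424 had 7.03 (-59.1) and is a transcribed pseudogene matched to argininosuccinate synthase of the urea cycle. Ass1, which encodes that enzyme, also had a peak in the HKO list alone, of fold 1.93 (-32.4). Gm44805 had 2.47 (-52.7) and shares bases with Apoc2, an activator of lipoprotein lipase, whose peak had the same fold. Gm15501, a coding gene on chromosome 7, had 13.6 (-45.0). Gm41999 had 11.6 (-28.2) beside a shared peak of 7.89 (FF) and 45.8 (HKO). Gm2a had 3.46 (-28.2), its single peak.

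The highest folds that held in both lists were mostly on lncRNAs. Ranked by the lower of the 2 folds, Gm11747 and Gm35254 came first, the latter with 71.3 (FF) and 132 (HKO) on chromosome 8, its centre 389 bp before the gene end in both lists. 1810013L24Rik, a coding gene matched to C16orf72, had 117 (FF) and 63.1 (HKO), and its FF peak was centred 300 bp from the gene start. Gm20604, Gm26684 (50.1 and 103), 1700096K18Rik (46.2 and 62.8), 2610507I01Rik (46.2 and 83.3) and 1700052K11Rik followed. Of the 8, 3 overlapped a peak of another gene at these positions, namely Gm11747, Gm20604 and 1700052K11Rik.

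Long runs of peaks were found on 28 genes with 4 or more in either list. Gm38456, a lncRNA on chromosome 16, had the most, 7 (FF) and 8 (HKO). From the gene start onward its FF folds were 10.3, 7.0, 9.31, 6.33, 4.7, 5.87 and 11.9, and its HKO folds 60.2, 14.7, 8.12, 6.2, 9.76, 11, 11.9 and 49.2. All 7 FF peaks overlapped an HKO peak. The outermost peaks, at the start and near the end, had the highest folds in both lists.

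Other runs differed between the lists. C730036E19Rik had a single FF peak of 1.67 near the gene end, which overlapped an HKO peak of 11, and 3 further HKO peaks of 3.78, 8.03 and 4.44 that were strong and specific to that list. 2510039O18Rik had FF folds of 10.9, 17.2, 4.31 and 2.46 from start to end and HKO folds of 3.43, 32.7 and 15.3, and the FF peaks of 4.31 and 2.46 overlapped the HKO peaks of 3.43 and 32.7. Gm33989, a coding gene matched to zinc finger protein 850, had 5 peaks in each list, with FF folds from 4.9 to 13.3 and HKO folds from 10.2 to 33.9. Gm32643, a lncRNA, had 1 FF peak of 8.2 that overlapped an HKO peak of 171, with 3 more HKO peaks of 2.27 to 19.5. Gm49668 had 3 FF and 5 HKO peaks, and that at chr17:15427861-15428880 had a fold of 14.7 (FF), with 81.9 for the HKO peak over it.

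**Figure D5:**
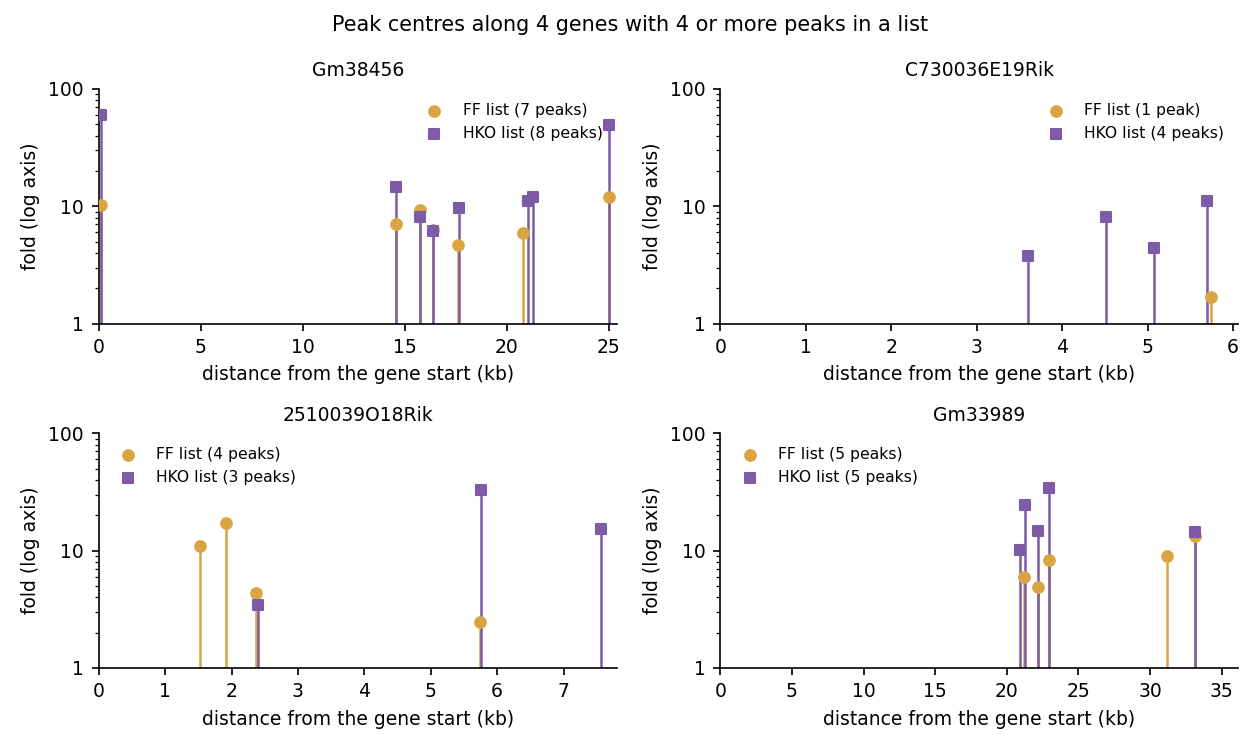
Peak centres along 4 genes, by distance from the annotated gene start in kb (horizontal axis), with the height of each stem as fold enrichment (log axis), FF in yellow and HKO in purple. Gm38456 had 7 and 8 peaks at largely the same places, whereas C730036E19Rik had 1 FF peak and 4 HKO peaks and 2510039O18Rik had 2 FF peaks near 1.5 to 1.9 kb without an HKO partner.

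Coding genes of this kind with many peaks included 1700017B05Rik, matched to C15orf39, with 4 in each list and folds up to 73.6 (FF) and 33.7 (HKO). 2900026A02Rik, the KIAA1671 gene, had 3 and 5, and its peak at chr5:113089800-113090879 had folds of 7.56 (FF) and 24.2 (HKO). 9930021J03Rik, the KIAA2026 gene, had 3 and 5, with FF folds of 6.7, 5.29 and 25.1 and HKO folds from 3.29 to 36.5. Gm42048, matched to a Gag-Pol protein, had 5 and 6. A430033K04Rik and 2610008E11Rik, both zinc finger matches, had 5 FF peaks each, and 3 and 4 HKO peaks. On A430033K04Rik the middle peak had 11.7 (FF) and 54.3 (HKO).

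On a list of 20 of the better known Gm and Rik names, 12 genes had a peak. 0610005C13Rik, a lncRNA, had 2 in each list, with folds of 4.01 at the start and 11.9 near the end (FF) and of 6.72 and 7.24 (HKO). 1810008I18Rik, another lncRNA, had 1.73 (FF) and 9.73 (HKO) at the same position near its end. Gm4952, which encodes a glycine N-acyltransferase-like protein, had 7.31 at the start and 2.86 near the end (FF) and 15.3 and 4.05 (HKO). 1110038F14Rik had 7.01 and 8.69, and 4933427D14Rik, the gene of the protein moonraker, 5.71 and 12.3. 9030616G12Rik had 2.29 and 3.72 (FF) and 25.5 (HKO). D430042O09Rik, the KIAA0556 gene, had a peak of 45.8 in the HKO list alone, and Gm10768 had peaks of 2.22 and 2.62 there. Gm15441 had its peak in the FF list alone, at a log10 q of only -2.12, while Txnip had folds of 8.67 (FF) and 9.51 (HKO).

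A few of the lncRNAs are hosts of microRNAs, short RNAs cut from hairpins that pair through bases 2 to 8, the seed, with target RNAs. RefSeq places 10 hairpins on the same strand within the spans of 9 of the 782 genes, and 7 of them lay within 500 bp of a peak, on 6 genes. Mature sequences are given for the hosts described below, for the arm named, 5′ to 3′ (RefSeq, GRCm38.p6), with the seed in capitals.
mmu-miR-1896: cUCUCUGAuggugggugaggag
mmu-miR-101a-3p: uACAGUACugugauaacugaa
mmu-miR-29b-3p: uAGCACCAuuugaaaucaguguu
mmu-miR-29c-3p: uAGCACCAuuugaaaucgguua
mmu-miR-135a-5p: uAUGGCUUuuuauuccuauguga

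The hairpin of miR-1896 lay inside the peak of its host 4930470G03Rik, at chr13:21444941-21445871 in the FF list, with folds of 16.4 (FF) and 18.2 (HKO). The peak of E130102H24Rik ended 33 bp from the hairpin of miR-101a, with folds of 4.02 (FF) and 29.7 (HKO). miR-29b and miR-29c share the seed AGCACCA and a host, A330023F24Rik. The gene had a single peak, of 90 bases and fold 5.43, in the HKO list, which lay between the hairpins, 221 bp from one and 117 bp from the other. D030055H07Rik, host of miR-135a, had 3 peaks in each list. The 1 nearest the hairpin had folds of 2.79 (FF) and 25.5 (HKO), and the widest, which overlapped in full between the lists, had 21.5 and 13.8. The lists show enrichment over these host RNAs and hold no measure of the mature microRNAs.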

How the data were processed

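MeRIP-seq peak lists of FF and HKO liver were analysed, with samples grouped by title. Per the submitters' processing notes, fastp 0.19.11, BWA 0.7.12, HOMER 4.9.1 and build GRCm38.p6 were used. Per the series design text, the authors ran exomePeak 2.16.0 on each genotype's IP and matching input, keeping peaks to a q of 0.05. The fold is the authors' ratio of IP to input, the score column a deposited p-value, and q a deposited log10 score, minus infinity where q was too small to hold. Antibody and library kit differ between the design text and the sample protocols, which was not settled here.

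Members and lists were chosen with earlier results of these data known. Named genes were the 8 shared peaks of highest lower fold, the 8 strong list-specific peaks of smallest q per list, genes with 4 or more peaks and a list of 20 genes. Other names, in the passages on sequences, overlapping pairs, protein matches and microRNA hosts, were picked after their values were seen. Shares carry 95% Wilson intervals for counting error only, and peaks of 1 gene are not independent. Coordinates count from base 1. The software was matplotlib 3.10.9, scipy 1.17.1, numpy 2.4.6 and pandas 2.3.3 under Python 3.11.15, and the overlap step was checked on simulated data.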

Additional observations from a re-analysis of the deposited data

How the results depend on the processing

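Over 65 alternative values of 18 results, 32 stayed within the 95% interval of the main share or median, or within 1.5 times the count. The other 33 moved further, and 16 of the alternatives were added after the data were seen. These labels do not record whether the order against other peaks turned. At a q of 1e-05 or less, the share of peaks was 4.82% (FF) and 5.08% (HKO). The HKO median fold was then 16.8, and 44.4% of HKO peaks lay near a gene end. Of FF peaks at that q, 76.8% were shared (others 81.5%). At that q, 273 genes had peaks in both lists (62%, other genes 75.4%), 67 in the FF list alone (15.2%, others 9.3%) and 100 in the HKO list alone (22.7%, others 15.3%), with 281 lncRNAs and 16 pseudogenes. Counted by gene the share was 7.52% and 7.44%. Without recurring values the median folds were 8.22 and 11. With 1 peak per gene 73.2% and 70.6% were shared (others 82.1% and 79.5%), and at a q above 1e-05 51.1% and 45.7% (others 51.3% and 44.7%). Within 200 bp, 8.79% (FF) and 5.27% (HKO) lay at the gene start and 10% and 9.88% at the end. On genes of 10 kb or more these were 10.1%, 5.58%, 28.7% and 30%, and without overlapping peaks the FF start share was 12.3%. Strong list-specific peaks numbered 120 and 164 at a q of 1e-03 (13.7% and 18%, others 12.7% and 16.9%), 8 and 30 at 1e-10 (0.913% and 3.29%, others 2.69% and 4.01%), and 22 and 35 on genes without a peak in the other list (2.51% and 3.84%, others 2.33% and 3.21%). Their order against other peaks thus turned in both lists at a q of 1e-03 and on genes without a peak in the other list. At the gene start it turned in the FF list for 200 bp (8.79% against 9.57%), besides the settings given with the shares at the start above. Fewer peaks enter each stricter setting, and other causes were not tested. No replicate could be left out, since each group had 1 library. No paired analysis was possible because each genotype was 1 pool. Depth limits what a missing peak can show.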

Other observations

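Across chromosomes, Gm and Rik genes held from 4.08% (X) to 9.04% (13) of FF peaks, and from 4.21% (11) to 8.62% (17) of HKO peaks. Besides zinc finger protein 431, the commonest protein matches of these genes included the ORF2 protein of LINE-1 (7 genes), the Gag-Pol polyprotein (5 genes), the ubiquitin ligase NEDD4 (4 genes) and Friend virus susceptibility protein 1 (3 genes).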
